A study of Homo sapiens with 12 samples.

Results

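Matrix metalloproteinases (MMPs) are zinc-dependent enzymes that cut collagens, fibronectin and other proteins of the extracellular matrix, and most are made as inactive proenzymes that must be cleaved or displaced from their own prodomain. Tissue inhibitors of metalloproteinases (TIMPs) bind the active site of these enzymes. On the cell surface the membrane-anchored enzyme MMP14, held by TIMP2, is known to activate the proenzyme of the gelatinase MMP2, and the stromelysin MMP3 is known to cleave and activate other proMMPs. In breast cancer these genes are known for their part in invasion through the basement membrane.

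The genes examined are 7 MMPs (MMP1, MMP2, MMP3, MMP9, MMP10, MMP14 and MMP15) and 3 inhibitors (TIMP1, TIMP2 and TIMP3), chosen by symbol: 10 of the 23375 genes that appear in at least 1 of the 4 comparison tables deposited by the authors. Of the 10, 8 had a row in at least 1 table and 7 had a row in all 4. TIMP3 had a row in 3 tables, and MMP9 and MMP10 had none, so their expression is not analysed here. The lowest mean normalized count in any row was 2.19 in the untreated knockdown table and 2.09 in the gemcitabine knockdown table, and no gene below these has a row there.

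RNA came from SUM159, an established line of triple-negative breast cancer from a primary tumour, in 12 libraries. The 4 groups of 3 were shE4F1 cells given 140 nM gemcitabine for 24 h, untreated shE4F1 cells, shCTRL cells given the same gemcitabine treatment, and untreated shCTRL cells. The hairpin shE4F1 lowers E4F1, a zinc finger transcription factor and ubiquitin ligase; shCTRL is the control hairpin; gemcitabine is a deoxycytidine analogue that stops DNA synthesis. All groups are 1 cell line with 1 hairpin label per arm. Nothing in the labels tells whether the 3 libraries of each group are separate cultures; every p-value therefore covers library-to-library spread alone, and that spread may be technical.

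The data hold no value per library that can be tied to a label, so every result is a mean or a log2 fold change (standard error, SE, beside it) from the authors' deposited tables. A gene is said to have risen or fallen at a Benjamini-Hochberg adjusted p under 0.05 of the authors' DESeq2 test over all genes. To show levels, the mean normalized count of each group was worked out from a table's overall mean, taken as that of its 6 libraries, and its fold change; these implied means carry the same error as the fold change and have no SD. E4F1 itself fell with its hairpin: it was at 0.503 times (log2 -0.99, SE 0.26) the shCTRL level in untreated shE4F1 cells and at 0.532 times (log2 -0.91, SE 0.16) under gemcitabine in the authors' deposited tables. Over all genes the SE had a median between 0.206 and 0.249 in the 4 tables. Of the markers checked, all 6 of mesenchymal-type carcinoma cells were in the tables, with means of 192 (TWIST1) to 66531 (VIM) in the untreated knockdown table. Among luminal epithelial markers there, ERBB2 had a mean of 2833, KRT8 of 2674, KRT18 of 2330 and GATA3 of 402. ESR1 had 9.21 and CDH1 5.34, while PGR, EPCAM and KRT19 had no row. Among basal epithelial markers, means were 8484 for EGFR, 1353 for TP63, 466 for KRT5, 10.8 for KRT17 and 2.54 for KRT14. Of the luminal and basal markers, EGFR, TP63 and KRT17 rose and GATA3 fell with the knockdown in untreated cells. The others of these with an adjusted p did not pass. Under gemcitabine EGFR and ESR1 rose and GATA3 and TP63 fell, TP63 at log2 -0.47 in the authors' deposited table. Of the mesenchymal markers SNAI2, TWIST1 and CD44 rose and VIM fell in untreated cells, and ZEB1 and CDH2 did not pass. With the drug ZEB1, TWIST1 and CD44 rose and CDH2 fell, and VIM and SNAI2 did not pass. Of 6 blood cell markers 3 had a row in the untreated knockdown table, with means of 3.62 to 42.6. CD68, ITGAM and CD3E had none there. PTPRC, the highest of the 3, fell with the knockdown in untreated cells (log2 -2.21 in the authors' deposited table). Of 6 endothelial markers PECAM1, KDR and TEK had a row, with means of 4.62 to 1801, and PECAM1 and KDR rose with the knockdown in both conditions, while VWF, CDH5 and CLDN5 had no row in the untreated knockdown table. Of 6 fibroblast markers PDGFRA, PDGFRB, DCN and FAP had a row, with means of 21.6 to 793, and LUM and THY1 had none. PDGFRA and DCN rose with the knockdown in untreated cells, at log2 1.09 and 1.17 in the authors' deposited table, and also rose under gemcitabine. PDGFRB of the same list fell in untreated cells (log2 -0.50), and under gemcitabine PDGFRB was at -0.19 and FAP at -0.26 without passing the test, in the authors' deposited tables. Every library is labelled SUM159, so these values describe marker genes within 1 cell line and not blood, endothelial or fibroblast cells. Whether the make-up of the line changed was not tested. In bulk RNA fewer cells with a transcript cannot be told apart from less RNA per cell.

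The promoters of MMP14 and MMP15 are shown because both membrane-type enzymes were higher with the knockdown in both conditions, and that of TIMP1 because its log2 change with the knockdown was the nearest to 0 in both conditions. The sequences are RefSeq's, build GRCh38.p14, from 250 bases before the RefSeq start up to the first base that GENCODE 29 annotates as transcribed. Capitals mark the GC box GGGCGG, a site of Sp1-type factors, on either strand, and TGACGT, the core shared by ATF and CREB sites.
MMP14, chr14:22836335-22836556, plus strand: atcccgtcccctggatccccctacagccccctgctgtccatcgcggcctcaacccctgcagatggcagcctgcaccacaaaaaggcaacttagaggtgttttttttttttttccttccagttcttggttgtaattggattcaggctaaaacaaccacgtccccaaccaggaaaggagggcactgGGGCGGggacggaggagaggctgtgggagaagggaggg
MMP15, chr16:58025504-58025565, plus strand: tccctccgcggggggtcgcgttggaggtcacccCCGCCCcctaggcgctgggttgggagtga
TIMP1, chrX:47582186-47582312, plus strand: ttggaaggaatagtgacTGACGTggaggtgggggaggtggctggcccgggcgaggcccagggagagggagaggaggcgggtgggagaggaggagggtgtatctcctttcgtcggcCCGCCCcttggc

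Promoter windows of 250 bases before to 50 after the start were given for MMP10, MMP14, MMP15, TIMP1 and TIMP3. The GC box lay in the windows of MMP14, MMP15, TIMP1 and TIMP3, as in 45.0% of all 35116 windows of this length. Past the printed stretches it also lay at -139, -117, -78 and -65 from the RefSeq start for MMP15, and at -45 for TIMP1. TGACGT lay in the TIMP1 window and in 7.98% of all windows. The AP-1 word TGANTCA, which is known from MMP promoters, lay in the MMP10 window alone of these 5, as TGAATCA, and in 7.71% of all windows. The TATA word TATAAA lay in the MMP10 window, as in 11.5% of all. These matches describe the letters and not binding.

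The first comparison asks what the knockdown did in untreated cells. MMP3, MMP15, MMP2, TIMP2 and MMP14 rose, and MMP1 and TIMP1 did not pass the test. That is 5 of the 7 genes with a row, against 17.5% of 19472 genes that rose and 19.3% that fell in the same table; the log2 change of every one of the 7 was above 0. The median log2 change of the 7 was 0.96 in the authors' deposited table, against 0.00 over all genes. The listed genes were chosen with earlier results of these data known, so this count is a description. The shares over all genes, here and below, take in genes with low counts.

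MMP3, stromelysin-1, lies on chromosome 11 from 102835801 to 102843803 on the minus strand (GRCh38; ENSG00000149968). In untreated cells, the authors' deposited table implies 1052 normalized counts in shE4F1 cells and 116 in shCTRL cells. The rise was 9.10-fold, with a 95% interval of 7.01 to 11.8 (log2 3.19, SE 0.19, adjusted p = 1.59e-58, in the authors' deposited table). By Wald score it ranked 3 of 21567 genes for a rise. This interval lies above those of the other listed genes in the table.

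MMP15 is a membrane-type enzyme on chromosome 16 from 58025566 to 58046901 on the plus strand. Its implied means were 284 in untreated shE4F1 cells and 88.6 in untreated shCTRL cells, a rise of 3.21-fold (interval 2.15 to 4.78) at log2 1.68, SE 0.29, adjusted p = 1.32e-07 in the authors' deposited table. MMP14, the other membrane-type enzyme of the list and the activator of proMMP2, lies on chromosome 14 from 22836557 to 22849027 on the plus strand. It had implied means of 958 in untreated shE4F1 cells and 621 in untreated shCTRL cells. The rise was 1.54-fold (interval 1.23 to 1.94; adjusted p = 0.00106 in the authors' deposited table), the smallest among the 5 that rose.

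MMP2, which cuts denatured collagen and collagen IV, lies on chromosome 16 from 55389700 to 55506691 on the plus strand. Its implied mean was 16138 in untreated shE4F1 cells and 8294 in untreated shCTRL cells, a 1.95-fold rise (interval 1.54 to 2.46; adjusted p = 2.56e-07 in the authors' deposited table). TIMP2, which both inhibits MMP2 and helps MMP14 to activate it, lies on chromosome 17 from 78852977 to 78925387 on the minus strand. It stood at 11675 in untreated shE4F1 cells and at 6019 in untreated shCTRL cells by implied means, a 1.94-fold rise (interval 1.48 to 2.55; adjusted p = 1.50e-05 in the authors' deposited table). Enzyme and inhibitor thus had log2 changes of 0.96 each in the authors' deposited table.

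MMP1, the interstitial collagenase that opens fibrillar collagen, lies on chromosome 11 from 102789920 to 102798160 on the minus strand and had few reads. Its implied means were 18.2 in untreated shE4F1 cells and 10.6 in untreated shCTRL cells, with a log2 change of 0.78 ± 0.47 (SE, adjusted p = 0.203) in the authors' deposited table. TIMP1, on chromosome X from 47582313 to 47586789 on the plus strand, is a secreted inhibitor of most MMPs. It had implied means of 18559 in untreated shE4F1 cells and 15690 in untreated shCTRL cells, at log2 0.24 ± 0.14 (SE, adjusted p = 0.191) in the authors' deposited table. The intervals run from 0.898 to 3.26 times for MMP1 and from 0.971 to 1.44 times for TIMP1. TIMP3, a matrix-bound inhibitor on chromosome 22 from 32801701 to 32863043, had no row in this table.

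**Figure D1:**
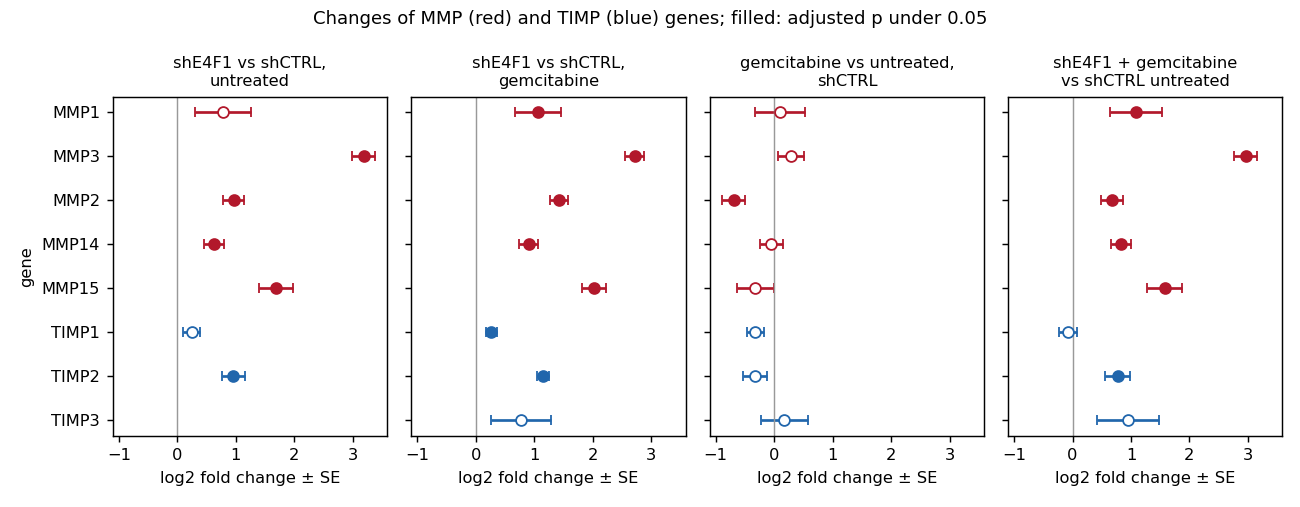
Log2 fold change ± SE (x axis) of the 8 listed genes with a row (y axis) in the 4 deposited tables, MMPs in red and TIMPs in blue, with filled points at an adjusted p under 0.05. MMP3 sits at 3.19 and 2.72 in the knockdown tables and at 0.29 with gemcitabine alone, where MMP2 at -0.69 is the only filled point.

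The second comparison repeats the knockdown contrast in cells given gemcitabine. All of MMP1, MMP2, MMP3, MMP14, MMP15, TIMP1 and TIMP2 rose in shE4F1 cells against shCTRL cells, and TIMP3 did not pass the test. That is 7 of 8 genes, against 20.3% of 22433 genes that rose and 20.8% that fell in this table, and every one of the 8 log2 changes was above 0. Their median log2 change was 1.11 in the authors' deposited table, against 0.00 over all genes. This table shares no library with the untreated knockdown table.

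MMP3 had implied means of 1045.5 in shE4F1 cells and 159 in shCTRL cells, both under gemcitabine. The rise was 6.58-fold (interval 5.26 to 8.22; log2 2.72, SE 0.16, adjusted p = 5.28e-59 in the authors' deposited table), again above the intervals of all other listed genes but MMP15, whose upper bound of 5.39 overlaps it. MMP15 stood at 309 in shE4F1 cells and at 75.9 in shCTRL cells by implied means, a 4.07-fold rise (interval 3.07 to 5.39; adjusted p = 3.98e-21 in the authors' deposited table). MMP3 and MMP15 had the highest fold changes of the list in both knockdown tables.

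Transcripts of the proteins that act together on proMMP2 were also higher in shE4F1 cells than in shCTRL cells when both were given the drug. MMP2 had implied means of 15382 in shE4F1 cells and 5731 in shCTRL cells, a 2.68-fold rise (interval 2.18 to 3.30; adjusted p = 1.94e-19 in the authors' deposited table). TIMP2 had 11955 in shE4F1 cells and 5369 in shCTRL cells, a 2.23-fold rise (interval 1.94 to 2.56; adjusted p = 1.15e-27 in the authors' deposited table). MMP14 had 1285 in shE4F1 cells and 687 in shCTRL cells, a 1.87-fold rise (interval 1.51 to 2.31; adjusted p = 4.69e-08 in the authors' deposited table). The 3 thus differed in the same direction with and without the drug.

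The 2 genes that had missed the threshold in untreated cells passed it here. TIMP1 had implied means of 17155 in shE4F1 cells and 14251 in shCTRL cells under gemcitabine, a 1.20-fold difference (interval 1.05 to 1.37; adjusted p = 0.0166 in the authors' deposited table). MMP1 had 27.6 in shE4F1 cells and 13.2 in shCTRL cells, a 2.08-fold difference (interval 1.23 to 3.54; adjusted p = 0.0186 in the authors' deposited table). Both calls were lost when the change was derived from the remaining 2 tables, with a larger SE (adjusted p = 0.564 for TIMP1 and 0.319 for MMP1). TIMP3 was near the lower limit of the table, with implied means of 7.05 in shE4F1 cells and 4.13 in shCTRL cells (log2 0.77 ± 0.51, SE, adjusted p = 0.24 in the authors' deposited table).

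Whether the knockdown effect differed between the conditions was tested directly, by subtracting the untreated log2 change from the one under gemcitabine. None of the 7 genes passed this test at an adjusted p under 0.05 (two-sided normal test over 20926 genes), against 5.43% of all genes. With the estimates of DESeq2, MMP2 alone had an unadjusted p under 0.05, at a difference of 0.46 (log2, interval 0.01 to 0.91, adjusted p = 0.277). For MMP3 the difference was -0.47 (interval -0.96 to 0.03, adjusted p = 0.344) and for MMP15 it was 0.34 (interval -0.36 to 1.05, adjusted p = 0.735). TIMP1 had the narrowest interval, -0.32 to 0.37 around 0.03 (adjusted p = 0.975), and its sign turned when changes were centred on the median. A miss of the threshold does not show that the effects were equal; the interval for MMP1 ran from -0.92 to 1.49.

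**Figure D2:**
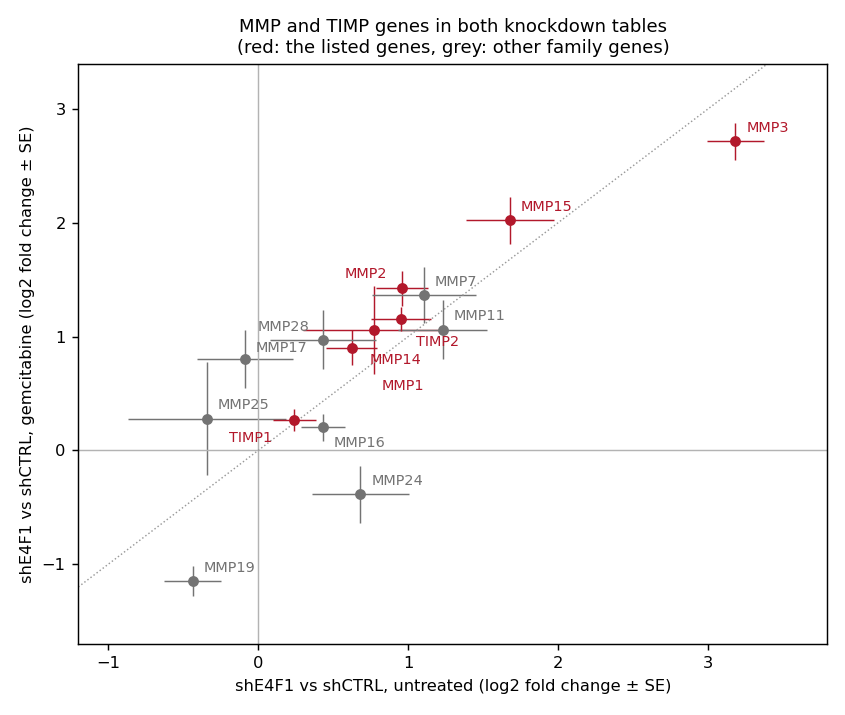
Log2 fold change ± SE of shE4F1 over shCTRL cells, untreated on the x axis and under gemcitabine on the y axis, for the 7 listed genes (red) and 8 other MMP genes (grey) with a row in both tables; the dotted line marks equal values. The 7 listed genes lie above 0 on both axes, and MMP19 at -0.44 and -1.15 lies below 0 on both.

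The third comparison sets gemcitabine-treated against untreated shCTRL cells. MMP2 fell and no listed gene rose, which is 1 of the 7 genes with an adjusted p, against 14.5% of 20002 genes that rose and 13.5% that fell. This share is close to the background and is no result about the list. MMP2 had implied means of 5789 in gemcitabine-treated shCTRL cells and 9353 in untreated shCTRL cells, 0.619 times the untreated level (interval 0.472 to 0.811; log2 -0.69, SE 0.20, adjusted p = 0.0032 in the authors' deposited table). MMP3 had 153 with gemcitabine and 126 without, at log2 0.29 ± 0.23 (SE, adjusted p = 0.38 in the authors' deposited table). The interval for MMP3, 0.897 to 1.66 times, ends below its knockdown rise in either condition.

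The remaining listed genes did not pass the test in shCTRL cells. TIMP1 alone of them had an unadjusted p under 0.05 of the DESeq2 test. TIMP1 and TIMP2 were at log2 -0.32 ± 0.15 and -0.32 ± 0.21 (SE, adjusted p = 0.103 and 0.259 in the authors' deposited table). MMP15 was at -0.32 ± 0.31, MMP14 at -0.05 ± 0.20 and MMP1 at 0.10 ± 0.43, with adjusted p of 0.495, 0.897 and 0.897 in the authors' deposited table. TIMP3, with a mean of 2.64, was at 0.18 ± 0.40 and has no adjusted p in the authors' deposited table.

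In shE4F1 cells the gemcitabine effect has no table of its own and was taken as the table of both changes minus the untreated knockdown table; its SE counts the untreated shCTRL libraries in both and is too large. None of the 7 genes passed the test over 21085 genes, either at an adjusted p or at an unadjusted p under 0.05, against 1.11% of all genes at an adjusted p. MMP3 was at log2 -0.23 (interval -0.77 to 0.32), MMP2 at -0.28 (-0.78 to 0.22) and TIMP1 at -0.32 (-0.74 to 0.10). MMP14 was at 0.21 (-0.27 to 0.68) and TIMP2 at -0.18 (-0.75 to 0.38).

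The fourth table sets shE4F1 cells under gemcitabine against untreated shCTRL cells, and shares libraries with each of the other tables. MMP1, MMP2, MMP3, MMP14, MMP15 and TIMP2 were higher and TIMP1 and TIMP3 did not pass, so 6 of 8 rose, against 15.8% of 19724 genes that rose and 16.3% that fell. MMP3 had implied means of 965 in gemcitabine-treated shE4F1 cells and 124 in untreated shCTRL cells, 7.78-fold higher (interval 5.93 to 10.2; adjusted p = 1.15e-46 in the authors' deposited table). MMP2 was 1.60-fold higher (interval 1.24 to 2.08; adjusted p = 0.0019) and MMP15 2.98-fold higher (interval 2.00 to 4.45; adjusted p = 1.18e-06) in the authors' deposited table. MMP14 was 1.78-fold higher (interval 1.40 to 2.26) and TIMP2 1.71-fold higher (interval 1.29 to 2.27) in the authors' deposited table.

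MMP1 was 2.12-fold higher in the same table (interval 1.16 to 3.89; adjusted p = 0.0472 in the authors' deposited table), a call that was lost when p was adjusted over every gene (adjusted p = 0.0519). TIMP1 was at log2 -0.08 ± 0.16 (SE, adjusted p = 0.772) and TIMP3 at 0.94 ± 0.53 (SE, adjusted p = 0.17) in the authors' deposited table. For each gene, the knockdown effect under gemcitabine plus the gemcitabine effect in shCTRL cells came within 0.13 (log2) of this table, with the widest gap for MMP15.

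Levels can be compared between genes only per length, so implied means were divided by the kilobases of exon in GENCODE 29. In untreated shE4F1 cells the order was TIMP1 at 12043 normalized counts per kilobase, MMP2 at 3271, TIMP2 at 2073, MMP3 at 514, MMP14 at 215, MMP15 at 64.3 and MMP1 at 9.24. In untreated shCTRL cells it was TIMP1 at 10182, MMP2 at 1681, TIMP2 at 1068, MMP14 at 139, MMP3 at 56.4, MMP15 at 20.1 and MMP1 at 5.40. MMP3 and MMP14 therefore stood in opposite order with and without the E4F1 hairpin. No spread per library goes with these levels, and the exon length the authors counted over is not given in the sources used here.

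The ratio of MMP2 to TIMP2, per kilobase, was 1.58 in untreated shE4F1 cells and 1.57 in untreated shCTRL cells. Under gemcitabine it was 1.47 in shE4F1 cells and 1.22 in shCTRL cells. MMP3 to TIMP1 was 0.0426 in untreated shE4F1 cells and 0.00554 in untreated shCTRL cells, so TIMP1 remained the more abundant transcript of this pair in both. Under gemcitabine the ratio of MMP3 to TIMP1 was 0.0459 in shE4F1 cells and 0.00839 in shCTRL cells.

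**Figure D3:**
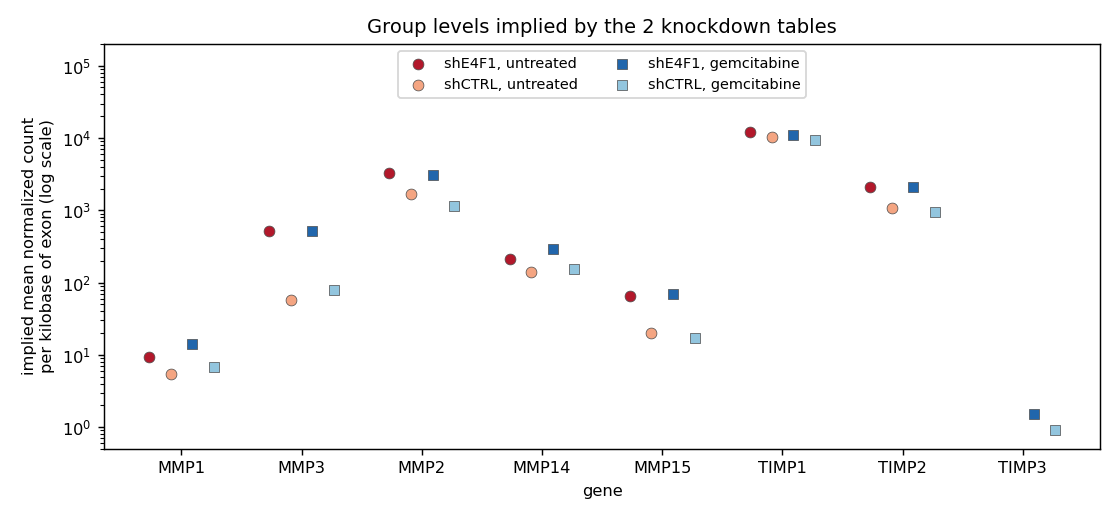
Group means of normalized counts per kilobase of exon (y axis, log scale) implied by the 2 knockdown tables, for each listed gene (x axis): untreated libraries as circles, gemcitabine-treated as squares, shE4F1 in dark and shCTRL in light shades, with no error bars. MMP3 stands at 514 and 510.5 in shE4F1 cells and at 56.4 and 77.6 in shCTRL cells.

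MMP1 and MMP3 lie in a cluster of 9 MMP genes that spans 435 kilobases of chromosome 11, all on the minus strand. Besides these, MMP7 and MMP12 of the cluster had rows. MMP7, matrilysin, rose 2.16-fold with the knockdown in untreated cells and 2.58-fold under gemcitabine (adjusted p = 0.00547 and 1.28e-07 in the authors' deposited tables). The second call was lost when the change was taken from the remaining tables, with a larger SE (log2 1.23, adjusted p = 0.0644). MMP12, the macrophage elastase, lies 18932 bases from MMP3 and fell to 0.337 times the shCTRL level with the knockdown under gemcitabine, while it rose 3.92-fold with gemcitabine in shCTRL cells (adjusted p = 0.00505 and 9.22e-05 in the authors' deposited tables; mean 8.64 and 7.58). MMP12 has a row in these 2 tables alone, both of which hold the gemcitabine-treated shCTRL libraries where it was highest, so its opposite values rest on the same libraries and on few reads.

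Some of these genes share exon bases with others: 7.61% of MMP1 exon bases and 1.56% of those of MMP3 lie over WTAPP1 on the opposite strand. For TIMP2 the share was 6.52% with an opposite-strand gene and 3.52% with CEP295NL on the same strand, and for MMP2 it was 3.53% with a same-strand transcript. Whether the counting used the strand is not given in the sources used here.

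Of 17 further MMP and TIMP genes, 10 had a row. In untreated cells 3 of 8 rose with the knockdown and 5 did not pass the test (median log2 change 0.43 in the authors' deposited table), where 17.5% of all genes rose and 19.3% fell. MMP11, stromelysin-3, rose 2.35-fold and MMP16, a membrane-type enzyme, rose 1.35-fold in the authors' deposited table. Under gemcitabine 4 of 10 rose and 2 fell with the knockdown (median 0.24), the falls being MMP12 and MMP19, where 20.3% of all genes rose and 20.8% fell. All 4 rises lost their call when taken from the remaining tables. The adjusted p of the normal test was then 0.0644 for MMP7, 0.0953 for MMP11, 0.319 for MMP17 and 0.194 for MMP28. That derivation uses the same libraries and adds those of untreated shCTRL cells, so its SE is larger and it is no separate check. The log2 changes went from 1.37 to 1.23, 1.06 to 1.02, 0.81 to 0.72 and 0.97 to 0.91, in that order. The untreated knockdown contrast could not be derived this way. MMP19 fell to 0.45 times the shCTRL level (adjusted p = 8.70e-17 in the authors' deposited table). Gemcitabine alone raised 3 of 10 in shCTRL cells, MMP12, MMP19 at 2.58-fold and the membrane-type enzyme gene MMP24 at 2.40-fold in the authors' deposited table; the other 7 did not pass, and 14.5% of all genes rose and 13.5% fell. None of these 3 is among the listed genes, which had no rise in that table. The opposite MMP19 values share the gemcitabine-treated shCTRL libraries, so they are not independent.

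Regulators of MMPs outside the TIMP family went both ways with the knockdown: 9 of 20 rose and 3 fell in untreated cells (median 0.31), and 10 of 21 rose and 5 fell under gemcitabine (median 0.35). The shares over all genes were 17.5% higher and 19.3% lower in untreated cells, and 20.3% higher and 20.8% lower under gemcitabine. BSG (basigin), a surface protein known to induce MMPs, fell to 0.281 times the shCTRL level in untreated cells and to 0.294 times under gemcitabine in the authors' deposited tables. RECK, a membrane-anchored inhibitor of MMPs, rose 1.73-fold in untreated cells and 1.46-fold under gemcitabine in the authors' deposited tables. PLG, plasminogen, was at 3.33 times the shCTRL level in untreated cells and at 3.43 times under gemcitabine in the authors' deposited tables, at means of 10.4 and 5.17. It has no row in the table of shCTRL cells alone, so every table with a row for it holds shE4F1 libraries, where it is higher. SERPINE2, a protease inhibitor, fell to 0.363 times under gemcitabine in the authors' deposited table. With gemcitabine in shCTRL cells 4 of 20 regulators rose and 6 fell, against 14.5% higher and 13.5% lower over all genes, with the plasminogen activator PLAU at 2.90-fold and thrombospondin-1, THBS1, at 0.393 times in the authors' deposited table.

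Cytokines and growth factors known to induce MMPs mostly fell with the knockdown. Of 12 in untreated cells 9 fell and 3 did not pass the test (median -1.10 in the authors' deposited table), and of 13 under gemcitabine 11 fell and 1 rose (median -1.37), against 19.3% and 20.8% of all genes that fell in these tables. IL1A, an inducer of MMP1 and MMP3 in fibroblasts, fell to 0.26 times the shCTRL level in untreated cells and to 0.145 times under gemcitabine in the authors' deposited tables. LIF and IL6, cytokines of the interleukin-6 family, fell to 0.296 and 0.347 times in untreated cells in the authors' deposited table. IL1B, CXCL8 and the EGF receptor ligand gene HBEGF fell to 0.0797, 0.101 and 0.126 times under gemcitabine in the authors' deposited table.

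With gemcitabine in shCTRL cells 7 of 13 of these inducers rose and 1 fell (median 1.55), against 14.5% and 13.5% of all genes. CXCL8, a chemokine, rose 30.7-fold, IL1B 19.5-fold, IL6 17.4-fold and IL1A 6.72-fold in the authors' deposited table. The same shCTRL gemcitabine libraries enter the gemcitabine knockdown table on the other side, so the opposite inducer values there are not independent of these. With gemcitabine in shCTRL cells MMP3 was at 1.22-fold and MMP1 at 1.07-fold, and neither passed the test in the authors' deposited table. MMP12, MMP19 and MMP24 rose there. Whether the inducers bear on MMP levels, with the hairpin or with the drug, was not tested.

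Transcription factors with known sites in MMP promoters gave no common direction with the knockdown: 3 of 17 rose and 4 fell in untreated cells (median -0.03), and 3 rose and 7 fell under gemcitabine (median -0.20). Over all genes 17.5% rose and 19.3% fell in untreated cells, so the untreated counts are near that background. Under gemcitabine 20.3% rose and 20.8% fell. That background takes in low-count genes, while the 17 had means of at least 50.1 in untreated cells. No share was worked out for genes of such means. ETV5 and ETV4, ETS factors, fell to 0.284 and 0.401 times the shCTRL level in untreated cells, and FOSB, an AP-1 subunit, rose 2.25-fold in the authors' deposited table. FOS and JUN, which form AP-1, were at log2 0.77 ± 0.37 and -0.22 ± 0.20 in untreated cells (SE, adjusted p = 0.0976 and 0.41 in the authors' deposited table). Under gemcitabine FOS fell to 0.452 times, JUN to 0.507 times and NFKB1 to 0.483 times, while CEBPB rose 1.99-fold, in the authors' deposited table. With gemcitabine in shCTRL cells 6 of 17 rose and 4 fell, against 14.5% and 13.5% over all genes. JUN rose 3.20-fold, FOS 2.69-fold and FOSB 2.46-fold in the authors' deposited table. The same libraries are the reference of the gemcitabine knockdown contrast, so the opposite FOS and JUN values are not independent.

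Genes of matrix proteins that MMPs cut were split. In untreated cells 9 of 19 rose and 4 fell with the knockdown (median 0.51), and under gemcitabine 5 of 19 rose and 6 fell (median 0.05), against 17.5% higher and 19.3% lower over all genes in untreated cells and 20.3% and 20.8% under gemcitabine. Fibronectin, FN1, rose 4.29-fold and COL5A1, of collagen V, 2.63-fold in untreated cells, where COL1A1, of collagen I, fell to 0.351 times in the authors' deposited table. Under gemcitabine COL3A1, of collagen III, fell to 0.177 times and LAMB3, a chain of laminin-332, to 0.205 times, and COL5A1 rose 4.26-fold, in the authors' deposited table. Gemcitabine raised 6 of 18 and lowered 2 in shCTRL cells, against 14.5% and 13.5% over all genes. COL3A1 was at 11.4-fold and LAMB3 at 7.50-fold in the authors' deposited table. The gemcitabine-treated shCTRL libraries are also the reference of the gemcitabine knockdown contrast, so the opposite values of COL3A1 and LAMB3 are not independent. With the knockdown in untreated cells COL3A1 rose (log2 0.98) and LAMB3 fell (log2 -1.27) in the authors' deposited table.

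**Figure D4:**
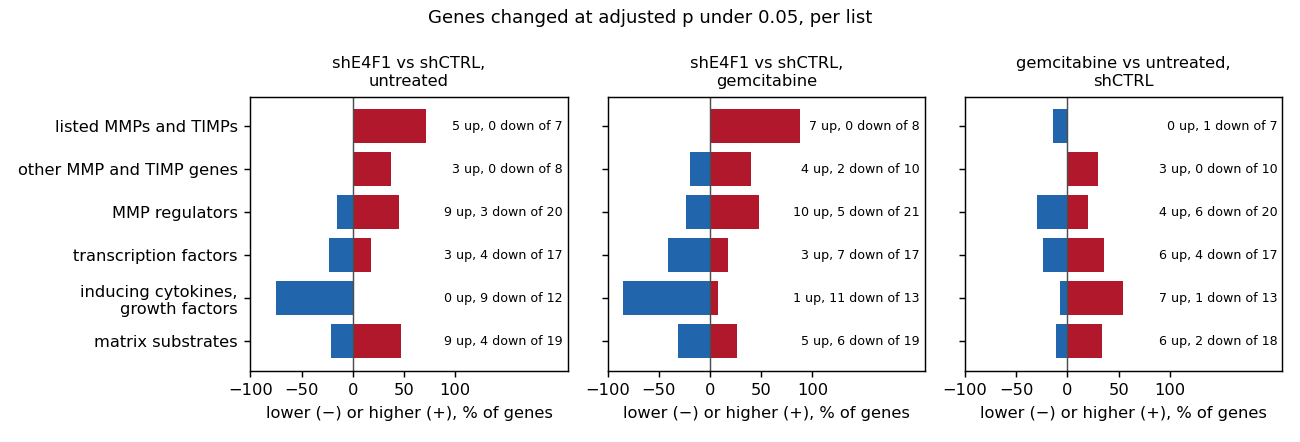
Share of genes with an adjusted p that were higher (red, right of 0) or lower (blue, left of 0) at an adjusted p under 0.05 (x axis, percent), for the listed genes and 5 lists of related genes (y axis) in 3 deposited tables; counts stand at the right. The inducer list has 9 of 12 and 11 of 13 genes lower in the knockdown tables and 7 of 13 higher with gemcitabine alone.

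The genes whose pattern was most like that of MMP3 over the 3 changes against untreated shCTRL cells, among 12506 genes with a mean of at least 50 in each of the 3 tables, were RNF152, SH3PXD2A and CSRNP3. Their Euclidean distances on the log2 scale were 0.55, 0.64 and 0.71, and SH3PXD2A was at 2.72 in untreated shE4F1 cells, 0.24 with gemcitabine and 2.53 with both in the authors' deposited tables. MMP3 itself was at 3.19, 0.29 and 2.96 there, with SEs of 0.19, 0.23 and 0.20. Each of the distances is larger than any 1 of these SEs, so the genes are the nearest in the pool without matching MMP3 closely in every change. For MMP1 the nearest were GAS2L1, GNAZ and SLC38A7, at distances of 0.06, 0.06 and 0.09. These distances lie far inside the SEs of the MMP1 changes, which were 0.47, 0.43 and 0.45, so the order of its neighbours cannot be told from error. The 3 changes share the untreated shCTRL libraries.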

How the data were processed

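Polyadenylated RNA of 12 SUM159 libraries was read as single-end reads of 50 bases from a stranded kit, per the labels. Per the submitters' processing notes the tools include DESeq2 1.14.1 under R 3.4.0, HTSeq 0.9.0, and for alignment TopHat2 2.1.1 and Bowtie2 2.2.9; the build named is GRCh38.p7. Not given in the sources used here are the annotation release, the strand setting, the design formula and how reads shared by close paralogs such as MMP3 and MMP10 were treated.

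The authors deposited 4 DESeq2 tables. Each holds, per the file headers, the mean normalized count (a signal scaled by size factors), a log2 fold change with its SE, a Wald score, and a p-value with its adjusted p-value. Low genes have moderated changes as far as the values show: with a mean under 10 the largest absolute log2 change was 2.57 in the untreated knockdown table. The 12 columns of the count table match no label and were not used, so depth per library is unknown and the SE gives the precision. Missing adjusted p-values were left missing.

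The gemcitabine effect in shE4F1 cells and the difference between knockdown effects were derived from 2 tables each, with summed variances, a two-sided normal test and Benjamini-Hochberg adjustment over all shared genes (Python 3.11.15, numpy 2.4.6, pandas 2.3.3, scipy 1.17.1). The derived tests were checked on simulated data. Positions and exon lengths are from GENCODE 29 (GRCh38) and promoters from RefSeq.

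All listed genes are named. From 5 lists of related genes (other MMP and TIMP genes, regulators, transcription factors, inducers, substrates) the 3 largest changes that passed the test in each of 3 tables are named, with genes named as background; some results that this rule selects are not reported here, and the counts per list include all genes. The listed genes and the lists were chosen with earlier results of these data known. Alternatives were another set of genes for the adjustment, centring on the median, an adjusted p under 0.01, and the same change taken from other tables.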

Additional observations from a re-analysis of the deposited data

Results flagged for a closer look

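The log2 change with the hairpin under gemcitabine, less the one without the drug, passed the test of the difference (adjusted p under 0.05, two-sided normal test over 20926 genes) for 13 of the genes named, none of them among the listed MMPs and TIMPs. Over all genes 5.43% passed. Apart from those named as background, the genes were picked for the largest changes in 3 tables. These include the 2 subtracted here, so a high count is built in and is no result about the lists. In the MMP family the test was passed by MMP19, at -0.71 (log2, adjusted p = 0.0431). That call was lost when the difference was taken from the other tables, with a larger SE (adjusted p = 0.554). Of the inducers, CXCL8 was at -2.37, IL1B at -2.30, HBEGF at -1.55 and IL6 at -1.16. Of the substrates, COL3A1 was at -3.48 and LAMB3 at -1.01. Of the transcription factors, FOS was at -1.91, FOSB at -1.44 and JUN at -0.76, and CEBPB at 1.03, ETV5 at 1.12 and ETV4 at 0.78. A negative value means that the log2 change with the hairpin was lower under gemcitabine than in untreated cells.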

How the results depend on the processing

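Of 193 values of the listed genes under an alternative, 182 kept their direction and their side of the threshold, 7 lost their call and 4 changed sign without having been called. Alternatives that changed only the set of genes, the adjustment or the threshold left the log2 change as it was, so they could not turn a direction. Values that were not called had no call to lose, so the count of 182 is no measure of robustness. The calls lost were those of MMP1 and TIMP1 under gemcitabine and of MMP1 in the table of both changes, and the calls of MMP2, MMP3, MMP14, MMP15 and TIMP2 in the knockdown tables held under every alternative run. Centred on the median, MMP14 was at 0.0158, MMP11 at 0.0592 and MMP28 at 0.0603 with gemcitabine in shCTRL cells, and TIMP1 was at -0.055 in the difference of knockdown effects. Taken from the other tables, whose summed SE is larger, MMP15 was at 0.0231 with gemcitabine in shE4F1 cells and TIMP1 at -0.000322 in the difference. Over all genes, the calls taken from the other tables were 3641 for the knockdown under gemcitabine (9202 as deposited), 3028 for gemcitabine in shCTRL cells (5599 as deposited), 142 for gemcitabine in shE4F1 cells (234) and 130 for the difference (1137); at an adjusted p under 0.01 the last 2 were 145 and 601. The MMP19 difference was lost at that threshold (adjusted p = 0.0431) and from the other tables (adjusted p = 0.554), and MMP7, MMP11, MMP17 and MMP28 lost their calls under gemcitabine when taken from the other tables. No replicate could be left out, and edgeR could not be run, since the count columns match no label. No paired analysis was possible because the columns carry no replicate numbers that match the labels.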
